A study of Mus musculus with 12 samples.

Results

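Keratins are the intermediate filament proteins of epithelial cells, and 48 keratin genes were followed here through water and chemical colitis in the mouse colon. The genes were all those whose symbol is Krt followed by digits alone in the annotation of the array, and they made up 48 of the 19935 genes measured. Each of the 48 had 1 probe set, and all 48 matched a RefSeq gene by identifier. Male mice aged 8 to 10 weeks carried a Villin-Claudin-2 transgene (TG) or were wild-type littermates (WT), and for 10 days they drank either water or 4% w/v dextran sodium sulfate (DSS), which injures the lining of the colon and causes colitis. The 12 arrays were hybridised with RNA whose label reads colon epithelial cells, 3 arrays for each genotype on each drink, which makes 4 groups. The villin promoter for which the transgene is named is active in intestinal epithelium, and the transgene encodes claudin-2, which makes tight junctions leaky to cations. Nothing in the labels ties each array to a separate mouse, so the spread behind the p-values could be partly technical.

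Keratin filaments form only when a type I (acidic) keratin pairs with a type II (basic) keratin, and they run from desmosome to desmosome to give an epithelial sheet its mechanical strength. Single-layered epithelia such as the colon use the simple keratins, Krt8 and Krt7 of type II with Krt18, Krt19 and Krt20 of type I, and mice that lack Krt8 can develop colitis. Stratified epithelia such as epidermis and oesophagus use the squamous keratins, while hair, nail and the horny papillae of the tongue use the hair keratins. The 48 genes held 5 simple, 19 squamous and 21 hair keratins (12 of the shaft and 9 of the root sheath). The other 3, Krt23, Krt80 and Krt222, were put in none of these classes. By filament type, 26 were type I and 22 were type II. Many are close copies of one another, and how far their probe sets also detect the related copies was not tested.

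Each value below is a log2 signal from which the probe set's median over the 12 arrays has been subtracted. Such a value compares arrays, so a gene at 0 on every array may be abundant or absent, and whether a squamous or hair keratin is expressed in these samples at all cannot be read from it. A difference is a fitted log2 difference between group means ± its standard error (SE), with n = 3 arrays a group. It was tested with limma over all 12 arrays, and p-values were adjusted by Benjamini-Hochberg over the 19935 genes with a threshold of 0.05.

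All 5 simple keratins fell together on 1 array, and Krt84 varied most among the keratins outside the simple class. The proximal promoters of Krt84 and of 3 of the 5 simple keratins, Krt8, Krt18 and Krt20, are shown. They are the 250 bases before the annotated start in RefSeq (GRCm38.p6), 5′ to 3′ on the gene's strand, at chr15:102004343-102004592 (minus strand) for Krt8, chr15:102027966-102028215 (plus strand) for Krt18, chr11:99438154-99438403 (minus strand) for Krt20 and chr15:101532821-101533070 (minus strand) for Krt84. Krt8 and Krt18 are neighbours in the same RefSeq annotation. Capitals mark matches on either strand to TATAAA (the TATA box), TTTATG (a core of CDX sites), CACCC (a core of KLF sites), GGGCGG (the GC box) and TGANTCA (an AP-1 site).
Krt8: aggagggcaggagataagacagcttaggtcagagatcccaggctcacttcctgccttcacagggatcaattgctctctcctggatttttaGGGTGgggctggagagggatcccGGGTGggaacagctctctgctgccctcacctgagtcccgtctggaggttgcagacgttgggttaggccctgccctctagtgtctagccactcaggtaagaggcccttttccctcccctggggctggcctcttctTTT
Krt18: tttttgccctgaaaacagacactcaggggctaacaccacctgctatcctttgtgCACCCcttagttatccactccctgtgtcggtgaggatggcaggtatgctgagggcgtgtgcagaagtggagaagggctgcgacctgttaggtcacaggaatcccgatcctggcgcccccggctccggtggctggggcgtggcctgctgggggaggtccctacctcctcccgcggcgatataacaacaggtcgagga
Krt20: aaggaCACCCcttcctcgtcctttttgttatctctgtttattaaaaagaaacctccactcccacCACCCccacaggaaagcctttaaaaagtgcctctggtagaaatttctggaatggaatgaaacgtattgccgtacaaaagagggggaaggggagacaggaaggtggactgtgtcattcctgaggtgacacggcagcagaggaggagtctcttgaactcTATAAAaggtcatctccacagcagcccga
Krt84: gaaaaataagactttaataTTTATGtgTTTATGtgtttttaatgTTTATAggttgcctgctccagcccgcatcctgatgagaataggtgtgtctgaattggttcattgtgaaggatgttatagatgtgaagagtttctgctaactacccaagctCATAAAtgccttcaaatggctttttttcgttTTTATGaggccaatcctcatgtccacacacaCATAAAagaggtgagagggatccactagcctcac
The capitals at the end of the Krt8 run are the part of a TATAAA match, read on either strand, that lies before the annotated start, since that match runs across it. Krt20 has TATAAA at position -29 from the start, and Krt18 has no match to it in the window. Krt84 has 5 matches to TTTATG, at -231, -223, -96, -65 and -34, and Krt8, Krt18 and Krt20 have none.

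Over the wider window of 300 bases that ends 50 bases past the start, a promoter was found for 35 of the 48 keratin genes, giving 36 promoters, while 13 genes had none in the table. TATAAA was in 18 of the 36 keratin promoters and in 13.6% of all 32851 promoters of the same length. For TTTATG the figures were 15 of 36 and 11.9%, and for CACCC 30 of 36 and 57.5%. GGGCGG was in 2 of 36 keratin promoters against 35.7% of all promoters, and TGANTCA in 2 of 36 against 7.81%. Both keratin promoters with TGANTCA belonged to 1 gene, Krt13. Keratin genes lie in clusters of related copies, so their promoters are not independent, and a match describes letters and is not a site of binding.

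One array stood apart before any comparison was made. In WT DSS replicate 2, 3795 of the 28815 probe sets deviated from their medians by over 1 log2 unit, against 677 and 1035 in the other WT DSS arrays, 53 to 285 in the TG DSS arrays and 22 to 91 in the water arrays. On that array the median of 20 general epithelial genes other than keratins, such as Epcam and Cdh1, was -2.22, and all 20 were below 0. On the other 11 arrays that median lay between -0.19 and 0.13. The medians of markers of other cells on the same array were 2.26 for 12 fibroblast genes, 2.17 for 12 macrophage and monocyte genes, 2.90 for 12 endothelial genes and 4.26 for 12 neutrophil genes. They were lower for the other lists, at 0.66 for 10 smooth muscle genes, 0.33 for 11 T and NK cell genes and -0.19 for 6 mesothelium genes. Cldn2 itself read -2.28 there, and at water it was 0.14 ± 0.44 higher in TG than in WT (adjusted p = 1 by limma), with values of -0.04, 0.02 and 0.11 in WT and 0.36, 0.18 and -0.02 in TG. Cldn2 signal therefore did not separate the arrays labelled TG from those labelled WT. Where leaving out this array moved a fitted difference or median given below for DSS in WT by over 1.5 times, the value without it is given as well.

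No keratin gene passed the threshold in any of the 5 comparisons made. For DSS against water in WT, 0 of 48 passed by limma, where 0.171% of all genes did, and 2 keratins (Krt17 and Krt23) had an unadjusted p under 0.05, a share of 4.17% against 15.2% of all genes. For TG against WT at water, 0 of 48 passed and 0.0% of all genes did, with 0 keratins and 0.306% of all genes under 0.05 unadjusted. For DSS against water in TG the counts were 0 of 48 against 0.0%, with 0 keratins and 2.38% of all genes under 0.05 unadjusted. For TG against WT under DSS they were 0 of 48 against 0.0401%, with 2 keratins (Krt23 and Krt36) and 15.9% of all genes under 0.05 unadjusted. For the interaction, the difference between the DSS change of TG and that of WT, they were 0 of 48 against 0.0%, with 1 keratin (Krt23) and 5.85% of all genes.

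**Figure D1:**
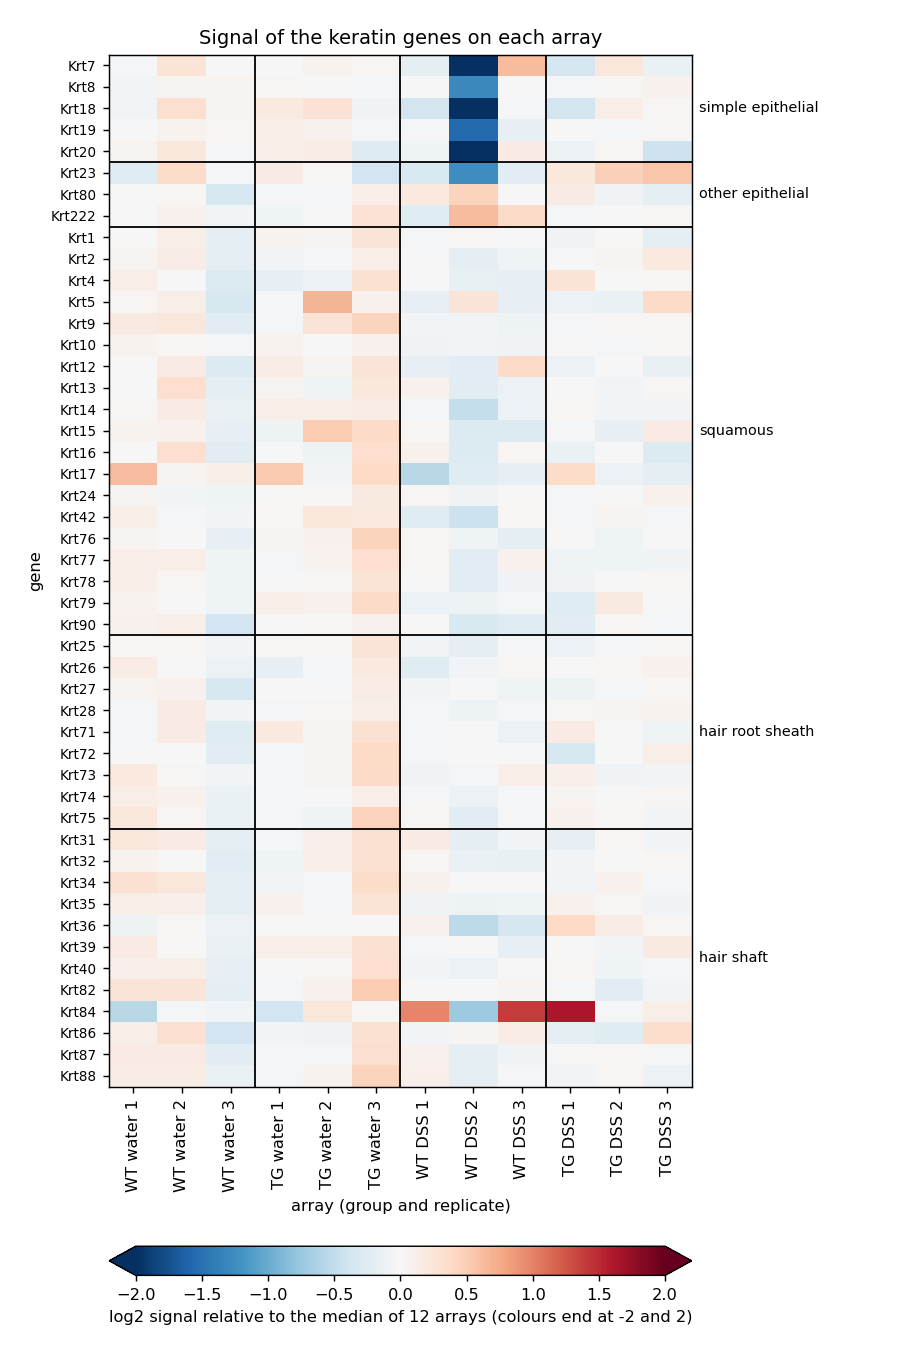
Log2 signal of each of the 48 keratin genes (rows, by class) on each of the 12 arrays (columns, by group and replicate), relative to the gene's median over the arrays; colours end at -2 and 2. The 5 simple keratins and Krt23 are dark blue on WT DSS replicate 2, Krt84 is red on WT DSS replicates 1 and 3 and TG DSS replicate 1, and most squamous and hair keratins are pale red on TG water replicate 3 and pale blue on WT water replicate 3.

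The simple keratins were low on WT DSS replicate 2 and lay between -0.41 (Krt20) and 0.64 (Krt7) on the other 11 arrays. Krt18, the type I partner of Krt8 in the colon, read -0.06, 0.32 and 0.05 in WT on water, 0.20, 0.29 and -0.07 in TG on water, -0.36, -2.80 and -0.02 in WT on DSS, and -0.36, 0.14 and 0.02 in TG on DSS. Krt8, the main type II keratin of simple epithelia, read -0.05, 0.05 and 0.05, then 0.02, -0.01 and -0.03, then 0.00, -1.29 and 0.00, then -0.02, 0.03 and 0.08 in the same order of groups. Leaving out WT DSS replicate 2, Krt8 stayed within -0.05 to 0.08, a range of 0.13 log2 units that was the narrowest of the 5. The WT DSS arrays overlapped the water arrays for Krt8, Krt18, Krt7 and Krt20.

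Krt19, the short type I keratin without a tail domain, read -0.01, 0.07 and 0.04 in WT on water, 0.11, 0.08 and -0.03 in TG on water, -0.02, -1.56 and -0.17 in WT on DSS, and 0.01, -0.02 and 0.03 in TG on DSS. It was the only simple keratin whose 3 WT DSS arrays all lay below the 3 WT water arrays, although the highest of the former, at -0.02, lay just under the lowest of the latter, at -0.01. Krt20, a marker of differentiated colonocytes and goblet cells, read 0.06, 0.22 and -0.04, then 0.14, 0.15 and -0.26, then -0.08, -2.34 and 0.17, then -0.12, 0.04 and -0.41. Apart from WT DSS replicate 2, its lowest array was TG DSS replicate 3. Krt7, a type II keratin best known from ducts and bladder, read -0.04, 0.27 and -0.01, then 0.01, 0.07 and 0.04, then -0.19, -2.64 and 0.64, then -0.34, 0.22 and -0.14. Krt7 thus had both its lowest and its highest array in WT on DSS, a range of 3.28 log2 units, the widest of the 48 keratins.

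Averaged over the WT DSS arrays, the simple keratins were lower than at water by an amount set by 1 array. The fitted DSS difference in WT was -1.16 ± 0.57 for Krt18 (adjusted p = 0.364), -0.83 ± 0.52 for Krt20 (0.478) and -0.81 ± 0.63 for Krt7 (0.587), with the adjusted p by limma in parentheses. It was -0.62 ± 0.32 for Krt19 (adjusted p = 0.384) and -0.45 ± 0.28 for Krt8 (adjusted p = 0.477). The median of the 5 was -0.81, and 0 of 5 passed. Without WT DSS replicate 2 the median was -0.04, and the differences were -0.29 ± 0.18 for Krt18, -0.13 ± 0.08 for Krt19, -0.04 ± 0.17 for Krt20, -0.02 ± 0.08 for Krt8 and 0.15 ± 0.23 for Krt7, where the sign turned. None passed in that fit, with adjusted p between 0.590 and 0.987.

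In TG, none of the simple keratins passed for DSS against water. The differences were -0.21 ± 0.57 for Krt18, -0.17 ± 0.52 for Krt20, -0.12 ± 0.63 for Krt7, -0.05 ± 0.32 for Krt19 and 0.04 ± 0.28 for Krt8, with a median of -0.12, beside the WT median of -0.81 with WT DSS replicate 2 and -0.04 without it. At water, TG differed from WT by between -0.07 (Krt20) and 0.04 (Krt18). These SEs come from a spread pooled over the 4 groups, which the single low array widens, so without that array they were 0.16 for Krt18, 0.15 for Krt20, 0.20 for Krt7, 0.07 for Krt19 and 0.07 for Krt8. Under DSS, TG was above WT by a median of 0.59, from 0.46 for Krt8 to 0.99 for Krt18, and none passed. Without WT DSS replicate 2 that median was 0.03, with 3 of 5 above 0. The interaction median was 0.66, and 0.05 without that array.

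**Figure D2:**
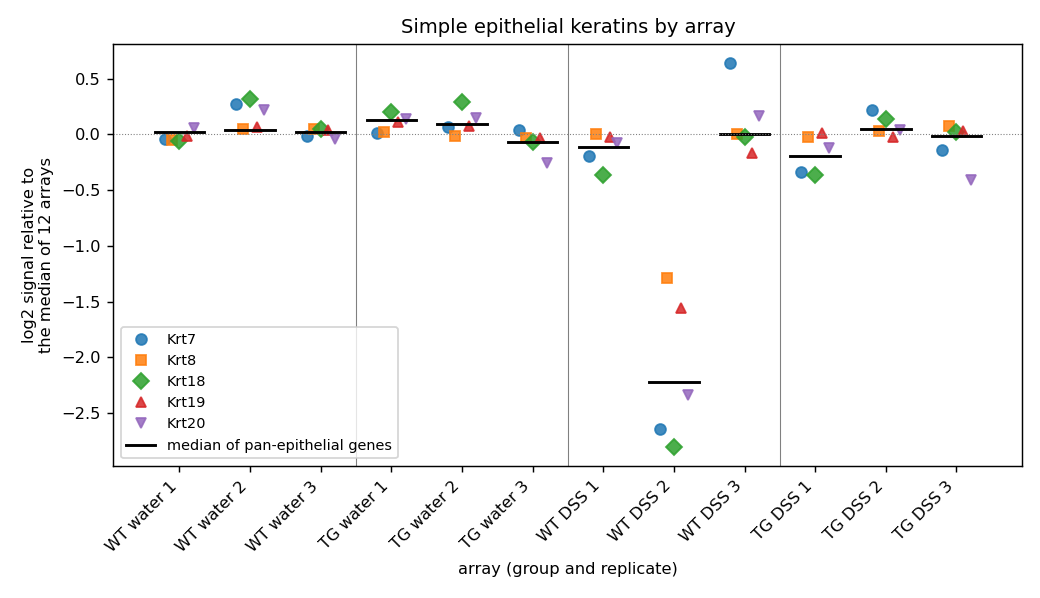
Log2 signal of the 5 simple epithelial keratins on each array relative to the median of the 12 arrays (points), with the median of 20 general epithelial genes that are not keratins (black bars). On WT DSS replicate 2 the keratins lie between -2.80 and -1.29 around an epithelial median of -2.22, and on the other arrays they lie between -0.41 and 0.64.

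Set against the general epithelial genes, the 5 simple keratins did not fall by the same amount on WT DSS replicate 2. With the epithelial median of -2.22 subtracted, Krt8 was at 0.92 and Krt19 at 0.66, so their signal fell less than that of the typical epithelial gene. Krt20 was at -0.12, Krt7 at -0.43 and Krt18 at -0.58. Before subtraction, the 20 epithelial genes themselves ran from -3.13 (Prss8) to -1.15 (Lgals4) on that array. All 5 keratins lay within that span, so an uneven fall was not particular to them. In bulk samples such as these, fewer epithelial cells and less RNA per epithelial cell cannot be told apart. After the same subtraction on every array, the DSS difference in WT was 0.35 for Krt8, 0.18 for Krt19, -0.01 for Krt7, -0.04 for Krt20 and -0.36 for Krt18. The same differences without WT DSS replicate 2 were 0.06 for Krt8, -0.05 for Krt19, 0.23 for Krt7, 0.04 for Krt20 and -0.21 for Krt18, so the sign turned for Krt19, Krt7 and Krt20. With all arrays, the SDs over the WT DSS arrays, between 0.14 and 0.54, were as large as or larger than all of these except for Krt18, whose SD was 0.28.

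Krt23, a type I keratin induced in stressed liver, had the largest interaction of the 48 keratins, which did not pass. It read -0.25, 0.37 and -0.04 in WT on water, 0.17, 0.04 and -0.38 in TG on water, -0.30, -1.24 and -0.21 in WT on DSS, and 0.21, 0.47 and 0.56 in TG on DSS. All 3 TG DSS arrays lay above all TG water arrays and all WT DSS arrays. The difference was -0.61 ± 0.27 for DSS in WT (adjusted p = 0.326) and 0.47 ± 0.27 for DSS in TG (adjusted p = 1). Under DSS, TG was 1.00 ± 0.27 above WT (adjusted p = 0.148 by limma). The interaction was 1.08 ± 0.39 (adjusted p = 0.801 by limma). Without WT DSS replicate 2, the DSS difference in WT was -0.28 ± 0.20 (adjusted p = 0.674), TG was 0.67 ± 0.20 above WT under DSS (adjusted p = 0.204) and the interaction was 0.75 ± 0.27 (adjusted p = 0.677). Krt20 and Krt39 are its neighbours on the chromosome, and on the TG DSS arrays Krt20 read -0.12, 0.04 and -0.41 and Krt39 read -0.01, -0.05 and 0.18.

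Krt80 and Krt222, also outside the 3 main classes, did not pass in WT on DSS, and their averages there leaned on 1 array. Krt80, a type II keratin of many epithelia, read 0.19, 0.45 and -0.01 in WT on DSS against 0.01, 0.04 and -0.32 in WT on water, a difference of 0.30 ± 0.15 (adjusted p = 0.360 by limma), and the arrays overlapped. Krt222 read -0.24, 0.63 and 0.38 against 0.00, 0.09 and -0.06, a difference of 0.25 ± 0.19 (adjusted p = 0.567), with overlap. With WT DSS replicate 2 left out, the differences were 0.18 ± 0.14 for Krt80 (adjusted p = 0.720) and 0.06 ± 0.17 for Krt222 (adjusted p = 0.967). In TG the same differences were -0.06 for each of them. On WT DSS replicate 2, where the simple keratins were lowest, Krt80 and Krt222 had their highest values.

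**Figure D3:**
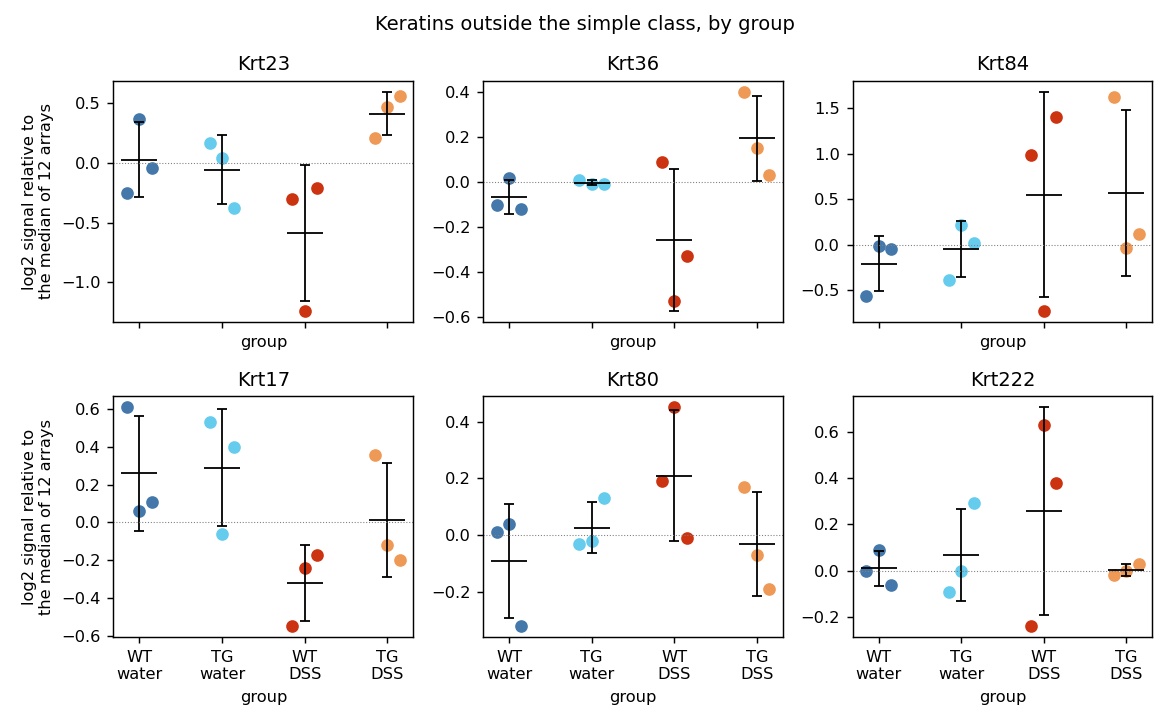
Log2 signal of 6 keratins outside the simple class in the 4 groups, relative to the median of the 12 arrays; points are arrays, horizontal lines are group means and bars are 1 SD (n = 3). Krt23 lies between 0.21 and 0.56 in TG on DSS and between -1.24 and -0.21 in WT on DSS, and Krt84 is at or above 0.98 on 3 of the 6 DSS arrays and between -0.73 and 0.12 on the others.

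The squamous keratins moved little with DSS. Over the 19 genes the median DSS difference was -0.09 in WT and -0.19 in TG, beside medians of -0.04 and -0.01 over all genes, and 15 of 19 in WT and 17 of 19 in TG were below 0. The WT median was -0.06 without WT DSS replicate 2, with 15 of 19 below 0, and -0.17 without WT water replicate 3, with 19 of 19 below 0. Their median range over the 12 arrays was 0.61 log2 units, beside 0.64 for all genes and 2.56 for the simple keratins. Leaving out WT DSS replicate 2, the median range was 0.53 for squamous keratins, 0.53 for all genes and 0.63 for simple keratins. No array showed a squamous keratin more than 1 log2 unit from its median.

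Krt17, a keratin of basal cells that is induced in wounded skin, had the widest range of the squamous keratins. It read 0.61, 0.06 and 0.11 in WT on water and -0.55, -0.24 and -0.17 in WT on DSS, so the DSS arrays lay below the water arrays. The difference was -0.58 ± 0.21 (adjusted p = 0.252 by limma), and -0.62 ± 0.24 without WT DSS replicate 2 (adjusted p = 0.301). In TG, Krt17 read 0.53, -0.06 and 0.40 on water and 0.36, -0.12 and -0.20 on DSS, which overlap, with a difference of -0.28 ± 0.21. The wound keratins Krt16 and Krt6a, partners in injured skin, differed between DSS and water in WT by -0.09 and -0.02, with values of 0.09, -0.27 and 0.04 for Krt16 and 0.07, 0.05 and -0.08 for Krt6a in WT on DSS. Their differences were 0.02 and -0.04 without WT DSS replicate 2. Krt6b, another keratin of this kind, differed by -0.40 ± 0.20 (adjusted p = 0.368 by limma), from values of -0.03, -0.87 and -0.01 in WT on DSS, and by -0.12 ± 0.10 without WT DSS replicate 2 (adjusted p = 0.752). Krt6a and Krt6b are outside the 48 because their symbols end in a letter.

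Krt5 and Krt14, the pair of basal cells, differed in sign for DSS in WT, at 0.04 ± 0.22 and -0.23 ± 0.12. Without WT DSS replicate 2 both were -0.10. Their signs were the same for TG against WT at water (0.30 and 0.10) and for DSS in TG (-0.19 and -0.15). Between genotypes under DSS they were 0.07 and 0.18. The interactions were -0.23 and 0.08, and -0.09 and -0.05 without WT DSS replicate 2. Krt5 was highest on TG water replicate 2, at 0.68, and read -0.16, 0.26 and -0.16 in WT on DSS, while Krt14 read -0.03, -0.47 and -0.12 there. Krt15, another basal keratin, read -0.10, 0.51 and 0.39 in TG on water and 0.07, 0.09 and -0.17 in WT on water, a difference of 0.27 ± 0.17 (adjusted p = 1). Krt5 had the largest such difference of the 48, 0.30 ± 0.22 (adjusted p = 1), from 0.04, 0.11 and -0.32 in WT and -0.04, 0.68 and 0.09 in TG. For both genes the arrays overlapped. Krt10, the type I keratin of suprabasal epidermis, had the narrowest range of the 48, 0.15 log2 units, and its WT DSS arrays at -0.07, -0.06 and -0.07 lay below its WT water arrays at 0.07, 0.04 and -0.04.

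The hair keratins behaved much as the squamous ones, with Krt84 apart. Their median DSS difference was -0.09 in WT and -0.10 in TG, with 17 of 21 below 0 in each. The WT median was -0.04 without WT DSS replicate 2, with 18 of 21 below 0, and -0.17 without WT water replicate 3, with 20 of 21 below 0. The median range was 0.51 log2 units, and Krt84 alone of the 21 exceeded 1. Krt84, a type II keratin of the hair shaft and of tongue papillae, read -0.56, -0.02 and -0.05 in WT on water, -0.39, 0.22 and 0.02 in TG on water, 0.98, -0.73 and 1.40 in WT on DSS, and 1.62, -0.04 and 0.12 in TG on DSS. It was high on 3 of the 6 DSS arrays, 2 of WT and 1 of TG, and on none of the water arrays, and the groups overlapped. The DSS difference was 0.76 ± 0.55 in WT (adjusted p = 0.552) and 0.61 ± 0.55 in TG (adjusted p = 1). Without WT DSS replicate 2 the difference in WT was 1.40 ± 0.43 (adjusted p = 0.187). Its neighbour Krt82 read 0.00, 0.00 and 0.05 in WT on DSS and -0.03, -0.21 and -0.05 in TG on DSS, so the high arrays of Krt84 were not shared with it.

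Krt36, a type I hair keratin, read -0.10, 0.02 and -0.12 in WT on water, 0.01, -0.01 and -0.01 in TG on water, 0.09, -0.53 and -0.33 in WT on DSS, and 0.40, 0.15 and 0.03 in TG on DSS. The TG DSS arrays lay above the TG water arrays, and they overlapped the WT DSS arrays only at replicate 1 of WT. Under DSS, TG was 0.45 ± 0.15 above WT (adjusted p = 0.199 by limma). Without WT DSS replicate 1 that difference was 0.62 and passed (adjusted p = 0.0176), and without WT DSS replicate 2 it was 0.31 (adjusted p = 0.374). The call of Krt36 therefore depended on which WT DSS array was left out. Krt82 differed by -0.28 ± 0.15 for DSS in TG (adjusted p = 1), as low to 2 decimals as Krt15 and Krt17 and lower than the rest, from -0.02, 0.08 and 0.50 on water to -0.03, -0.21 and -0.05 on DSS.

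The share of keratins whose arrays separated the groups was below that of all genes for DSS in WT. In the other comparisons it was near that share or above it. For DSS in WT, 3 of 48 (6.25%) had arrays that did not overlap, against 16.1% of all genes, and all 3 (Krt10, Krt17 and Krt19) were lower on DSS, where 10.7% of all genes were and 5.45% were higher. For DSS in TG, 9 of 48 (18.8%) did not overlap, against 13.4%, with Krt23 and Krt36 higher (6.76% of all genes higher) and 7 lower (6.64% lower), namely Krt1, Krt12, Krt14, Krt25, Krt76, Krt77 and Krt82. For TG against WT under DSS, 8 of 48 (16.7%) did not overlap, against 19.0%, of which 7 were higher in TG (14.1% of all genes) and Krt82 was lower (4.9%). At water, 2 of 48 (4.17%) did not overlap, against 4.98%, and both, Krt76 and Krt79, were higher in TG, where 1.93% of all genes were and 3.05% were lower. These shares were below or near those of all genes, except for keratins lower on DSS in TG and those higher in TG at water. TG water replicate 3 enters both of those comparisons and held the highest TG water value of each of those keratins. Their separation was therefore set by TG water replicates 1 and 2, whose values were lower.

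At water, squamous and hair keratins read slightly higher in TG than in WT, and the difference came with 2 arrays. Of the 48 keratins, 42 had a fitted difference above 0, including 19 of 19 squamous and 19 of 21 hair keratins, beside 54.7% of all genes. The medians were 0.10 for squamous, 0.09 for hair, -0.02 for simple keratins and 0.01 for all genes, and none of the genes passed. TG water replicate 3 held the highest value of 26 of the 48 keratins and WT water replicate 3 the lowest of 18. On TG water replicate 3 the squamous median was 0.25, the hair median 0.30, the median of 44 keratin-associated protein genes 0.22 and that of 1015 olfactory receptor genes, which encode odour sensors of the nose, 0.14. On WT water replicate 3 the same medians were -0.17, -0.17, -0.14 and -0.05. Without TG water replicate 3, 27 of 48 keratins were above 0, with medians of 0.04 for squamous and -0.03 for hair keratins, and without WT water replicate 3, 27 of 48 were, with medians of 0.02 and 0.00. With each array centred on the olfactory receptor genes, 37 of 48 keratins were above 0, among them 17 of 19 squamous and 17 of 21 hair keratins with medians of 0.08 and 0.07. With each array centred on its own median, 42 of 48 were above 0, and the 2 medians were 0.09 and 0.08. With weights per array the count above 0 was 22 of 48, and the direction of the squamous and hair medians turned, to -0.01 and -0.08.

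**Figure D4:**
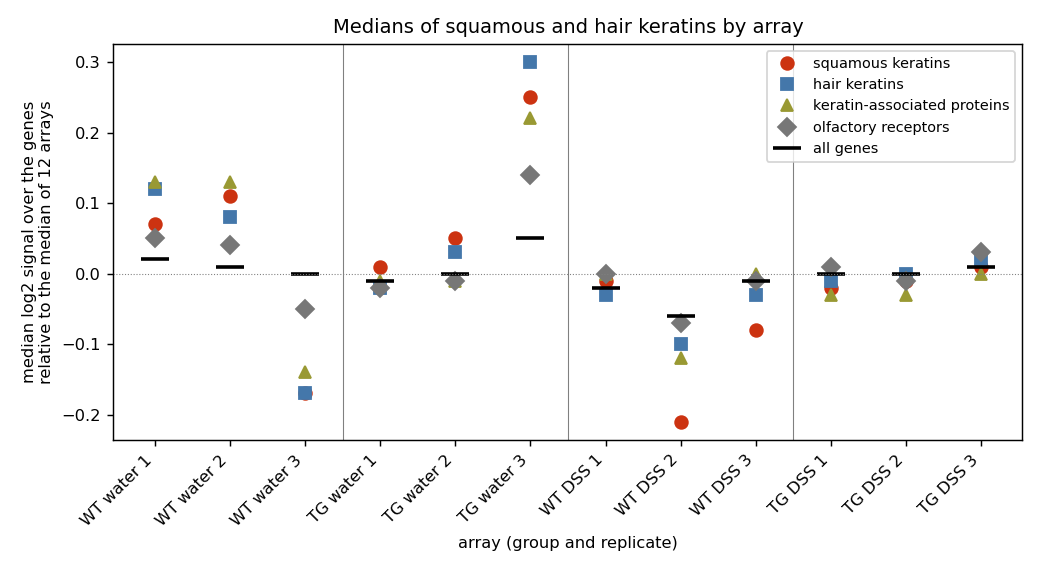
Median log2 signal on each array, relative to the median of the 12 arrays, over 19 squamous keratins, 21 hair keratins, 44 keratin-associated protein genes, 1015 olfactory receptor genes and all 19935 genes. Squamous and hair keratins, keratin-associated proteins and olfactory receptors have their highest medians on TG water replicate 3. Hair keratins and keratin-associated proteins have their lowest on WT water replicate 3. Squamous keratins and olfactory receptors have their lowest on WT DSS replicate 2, followed by WT water replicate 3.

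The same array entered the DSS comparison in TG. There 40 of 48 keratins were below 0 and 8 above, while 46.2% of all genes were above 0. Without TG water replicate 3 the count was 32 of 48, the squamous median went from -0.19 to -0.10 and the hair median from -0.10 to -0.02. In WT, 38 of 48 were below 0 for DSS and 10 above, while 40.6% of all genes were above 0, and without WT water replicate 3 the count below 0 was 45 of 48. By filament type there was little contrast, with DSS medians in WT of -0.10 for the 26 type I and -0.08 for the 22 type II keratins, and in TG of -0.13 and -0.12. The medians in WT were -0.06 and -0.03 without WT DSS replicate 2.

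**Figure D5:**
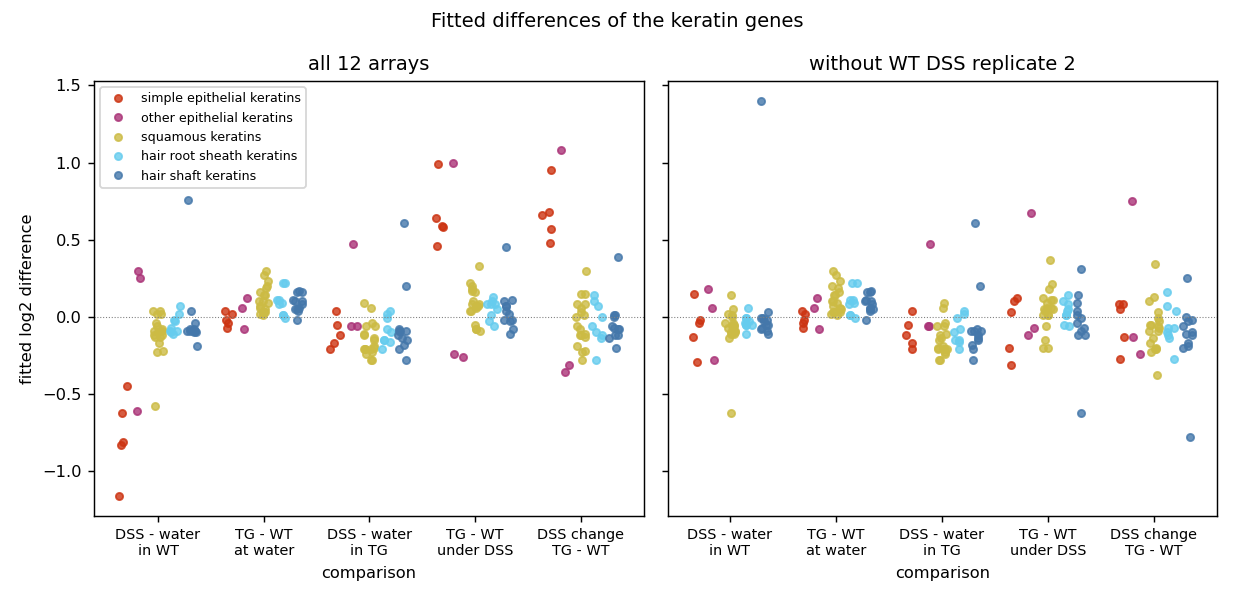
Fitted log2 differences of the 48 keratins in the 5 comparisons, coloured by class, over all 12 arrays (left) and without WT DSS replicate 2 (right). On the left the 5 simple keratins lie between -1.16 and -0.45 for DSS in WT, and on the right between -0.29 and 0.15, while squamous and hair keratins change little apart from Krt84.

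Genes of the junctions and linkers that anchor keratin filaments did not pass for DSS in WT, and as a group they were lowest on WT DSS replicate 2. Of 11 desmosome genes measured, 0 passed for DSS in WT, their median difference was -0.47 (-0.09 without WT DSS replicate 2), and their median on WT DSS replicate 2 was -1.23. Pkp1, a plakophilin of desmosomal plaques, read -0.52, -1.99 and -1.49 in WT on DSS against -0.06, 0.06 and 0.18 on water, a difference of -1.39 ± 0.30 (adjusted p = 0.0824), and it was low on more than 1 array. In TG its DSS difference was 0.00 ± 0.30, and the interaction was 1.39 ± 0.42 (adjusted p = 0.797 by limma). Pkp4 went the other way, 0.41 ± 0.12 (adjusted p = 0.158), and plakoglobin, Jup, differed by -0.29 ± 0.14. Among 13 linkers and hemidesmosome genes the median was -0.17 and 0 passed, with Itga6, a hemidesmosome integrin, at -0.42 ± 0.14 (adjusted p = 0.201) and Fam83h, which organises keratin filaments, at -0.95 ± 0.46 (adjusted p = 0.356). The linker median was -0.07 without WT DSS replicate 2, with Itga6 at -0.27, Fam83h at -0.24 and Jup at -0.10.

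Other intermediate filament genes, nuclear lamins among them, and genes of the cornified envelope did not pass either. Over 16 other intermediate filament genes the median DSS difference in WT was -0.05, and -0.18 without WT DSS replicate 2. Gfap, the filament of glia, read 0.53, 1.98 and 1.27 in WT on DSS against 0.00, -0.03 and -0.30 on water, a difference of 1.37 ± 0.32 (adjusted p = 0.102). Over 24 cornified envelope genes, which squamous cells cross-link into their outer shell, the median was -0.06 (-0.01 without WT DSS replicate 2), beside -0.09 for the squamous keratins. Casp14, a protease of cornifying cells, differed by -3.37 ± 0.72 (adjusted p = 0.0822) and loricrin, Lor, by -0.79 ± 0.15 (adjusted p = 0.0677), while transglutaminase 3, Tgm3, differed by -3.10 ± 1.06 (adjusted p = 0.216). Casp14 read -0.97, -3.29 and -4.55 and Tgm3 -0.38, -2.50 and -6.12 in WT on DSS. Casp14 and Tgm3 were thus lowest on replicate 3, and they were also low on replicate 2, where the simple keratins were low. Of the marker lists, a single gene passed for DSS in WT, the stem cell receptor Lgr5 of the crypt base, at -2.01 ± 0.25 (adjusted p = 0.0267).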

How the data were processed

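The data were 12 arrays with 28815 probe sets each. Per the submitters' processing notes, the authors summarised signals with RMA in Affymetrix Expression Console (no version is named in the labels). Because RMA returns log2, the deposited values were treated as log2 signals, though no base is stated. Every probe set had a median within 5e-07 of 0 across arrays, so values were centred and give no level.

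Of the probe sets, 21780 had 1 gene symbol, 1605 several and 5430 none. Probe sets with 1 symbol were averaged per gene, giving 19935 genes, without a filter on dim signals, which centred values do not allow. Group means over all 12 arrays were modelled in limma 3.58.1 under R 4.3.3 (lmFit, eBayes, 8 residual degrees of freedom), with 5 comparisons and two-sided p-values adjusted by Benjamini-Hochberg, threshold 0.05. An exact permutation test of 3 against 3 arrays cannot go below 0.1, so none was used. On simulated data for DSS in WT over 19935 genes, 77.6%, 89.6% and 95.5% of genes changed by 1, 2 and 4 log2 units were recovered, with 8 false calls. The simulated noise was normal, independent between genes and equal over the groups, so it held no array such as WT DSS replicate 2. It checked that the code runs as meant, and the shares do not give the power in these data.

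The members, classes and gene lists were chosen with earlier results of these data known. Named were every simple keratin, the 8 other keratins with the widest range, the 2 highest and 2 lowest in each comparison, any that passed, and of each list up to 4 genes with the smallest p for DSS in WT. Other genes named were chosen after their values were seen. Of 18 same-numbered pairs of arrays, 1 had deviations correlated above 0.1 (range -0.484 to 0.377). The main model therefore fitted no pairing, though deviations from means of 3 arrays cannot exclude one. Identical arrays were looked for and not found. Alternatives tried were the replicate block, other scalings, weights per array and, added after seeing the data, weights per group and centring on olfactory receptor genes. Tables and figures used Python 3.11.15, pandas 2.3.3, numpy 2.4.6 and matplotlib 3.10.9.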

Additional observations from a re-analysis of the deposited data

Results flagged for a closer look

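For 2 keratins, every WT DSS array moved one way from the mean of the water arrays and every TG DSS array moved the other way. Krt23 was lower than the water mean on all WT DSS arrays and higher on all TG DSS arrays, and the interaction was 1.08 ± 0.39 (adjusted p = 0.801 by limma). Krt72, a keratin of the hair root sheath, lay 0.03, 0.09 and 0.08 above the water mean in WT and differed from it by -0.46, -0.15 and -0.03 in TG. Its interaction was -0.28 ± 0.19 (adjusted p = 0.855 by limma). Without WT water replicate 3, where Krt72 read -0.23, its WT DSS arrays lay at -0.04, 0.01 and 0.01 from the water mean and the interaction was -0.21. Without TG water replicate 3, where it read 0.40, its TG DSS arrays lay at -0.33, -0.02 and 0.09 and the interaction was -0.16. In either case Krt72 no longer moved in opposite directions on every array, while Krt23 still did. Neither interaction passed. Such a pattern was seen in 4.17% of keratins, 2 of 48, and in 5.99% of all genes, 1195 of 19935.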

How the results depend on the processing

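The count of keratins past the threshold was 0 in all 5 comparisons, and it stayed 0 under every alternative run except 2. With weights per array, 1 keratin passed for TG against WT at water, Krt34 at -0.30 (adjusted p = 0.0316, and between 0.0316 and 1 over the alternatives). Without WT DSS replicate 1, 1 keratin passed for TG against WT under DSS, Krt36 at 0.62 (adjusted p = 0.0176, and between 0.0176 and 0.539 over the alternatives). Over the single-array omissions that count ranged from 0 to 1. The replicate block changed no call, and the simple keratin median for DSS in WT was -0.81 with it.

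Over the omission of each array, the simple keratin median for DSS in WT ranged from -1.29 to -0.04, the latter without WT DSS replicate 2, and the squamous median of the interaction from -0.10 to 0.06, the latter without WT water replicate 3. With weights per array the hair median was -0.08 for TG against WT at water and 0.09 for the interaction. Signs of single genes that did not pass turned under weights per array for Krt20 (0.06), Krt23 (0.22), Krt7 (0.06) and Krt8 (0.03) at water, for Krt20 (-0.01), Krt222 (0.06) and Krt84 (-0.68) between genotypes under DSS, and for Krt20 (-0.07) and Krt222 (0.08) in the interaction. Centring on olfactory receptor genes turned Krt19 at water (-0.01) and Krt84 between genotypes under DSS (-0.03), and centring on the array median turned the latter too (-0.01). The cause was not tested.

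Omissions of single arrays turned signs as well. For DSS in WT, Krt7 ranged from -1.49 to 0.15. At water the ranges were -0.04 to 0.15 for Krt18, -0.01 to 0.06 for Krt19, -0.14 to 0.06 for Krt20, -0.22 to 0.09 for Krt23, -0.18 to 0.07 for Krt34, -0.09 to 0.06 for Krt7 and -0.01 to 0.33 for Krt84. Between genotypes under DSS they were -0.20 to 1.05 for Krt20, -0.31 to 1.33 for Krt7 and -0.62 to 0.44 for Krt84, and for the interaction -0.13 to 1.12, -0.27 to 1.37 and -0.78 to 0.28. In all, 38 values of single genes turned sign, 2 came past the threshold and 958 did neither. A filter on dim probe sets was not run because centred values hold no level, and a further quantile normalization was not run because it would equalise the spread of differences between arrays. The fit on only the groups compared gives no interaction, and eBayes with trend does not alter medians. The number of arrays limits the precision, and signal over background is unknown.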
